A study of Homo sapiens with 6 samples.

Results

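The promoters of zinc finger genes named ZNF and a number were examined for binding of N-Myc and JMJD6 in cultured human neuroblastoma cells of the CHP-134 line. Genes were chosen by their symbol (ZNF, digits and at most 1 final letter) in the lists of promoters bound by N-Myc, by JMJD6 or by both, so presence in a list is how they were selected and is described below without a test. In all, 129 ZNF genes were found, 126 of the 4150 genes in the N-Myc list and 3 of the 154 in the JMJD6 list. The list of promoters bound by both held 0 ZNF genes among its 75 genes (84 promoters). Of the N-Myc genes, 55 lay on chromosome 19 and 71 on other autosomes.

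Chromatin immunoprecipitation and sequencing (ChIP-seq) was carried out on cells grown in RPMI medium with fetal bovine serum, with 3 replicates for an N-Myc antibody and 3 for a JMJD6 antibody. N-Myc samples were cross-linked with formaldehyde alone, and JMJD6 samples with disuccinimidyl glutarate and then formaldehyde, so a difference between the proteins cannot be told apart from a difference in cross-linking. The values are positions of peaks that every one of the 3 replicates shared, 10172 for N-Myc and 561 for JMJD6, and of the promoters (1 kb on each side of a RefSeq start site) listed as bound. The lists hold no height, score or count per sample, so depth and replicate spread are unknown, and all intervals are exact binomial (Clopper-Pearson) 95% confidence intervals (CI), which reflect counting error alone. No value in the lists measures expression, and neither HAND2 nor GATA3, transcription factor genes of the neuroblastoma lineage, was in the N-Myc promoter list, although HAND2 was a nearest gene of 4 N-Myc-bound super-enhancers and GATA3 of 1.

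ZNF genes encode proteins with C2H2 zinc fingers, short loops that fold around a zinc ion and read DNA bases. Many also carry a KRAB box, which recruits the corepressor TRIM28 and, through it, the histone methyltransferase SETDB1 and heterochromatin proteins, and this class is known for silencing transposable elements. The genes arose by repeated duplication, and many stand in clusters on chromosome 19. N-Myc, the transcription factor encoded by MYCN, pairs with MAX and binds the E-box, CACGTG. JMJD6 belongs to the jumonji family of oxygenases and has been described as an arginine demethylase of histones.

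Sequences of 2 kinds were followed through the N-Myc peaks, and the first is the E-box. The windows of 30 bases below come from members with the most E-boxes in their peaks and from a peak shared by neighbouring genes. All are on GRCh37, written 5′ to 3′ on the strand given, with the E-box in capitals.
ZNF292, chr6:87865000-87865029 (+ strand): cgtcgcggcgccCACGTGaccgagagcagg
ZNF292, chr6:87865224-87865253 (+ strand): aagcgcgcccggCACGTGaccccgccgaac
ZNF292, chr6:87865257-87865286 (+ strand): gcattgtgttatCACGTGacccaggtgcgt
ZNF331, chr19:54041056-54041085 (+ strand): ggggtgcacgcaCACGTGtcagtgtgtccg
ZNF331, chr19:54041096-54041125 (+ strand): tctgtgcaggcgCACGTGtgtgtcgggctc
ZNF331, chr19:54057609-54057638 (+ strand): tgtgtgcgcgtaCACGTGcatgtcgcggtc
ZNF146, chr19:36705363-36705392 (+ strand): gacaggcggttaCACGTGcacagttgcaga
ZNF146, chr19:36706066-36706095 (+ strand): ggcccctgggtcCACGTGgcgcgaaagtag
ZNF587B, chr19:58341605-58341634 (+ strand): atttcctgtgtgCACGTGacaatgggtccg
ZNF587B, chr19:58341874-58341903 (+ strand): cctgctttaaacCACGTGgttcgatggcgg

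ZNF292 held 3 E-boxes in 1 peak, and ZNF331, a chromosome 19 gene with 9 listed start sites, held 3 in 2 of its 3 peaks. The E-box of ZNF292 at 5.5 bp and that at -27.5 bp from the start site flank it closely, whereas those of ZNF331 lay in peaks of separate start sites. The E-boxes of ZNF146 lay in a peak that also covers the start site of ZNF565 on the opposite strand.

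The second sequence is ACTACA followed, after any 3 bases, by CCCAG. It was noticed in printed stretches of these peaks, so it is described and not tested. Letters of this kind are known from binding sites of ZNF143, itself a member with an N-Myc peak of 732 bp. The windows below show it (both parts in capitals) in clustered chromosome 19 genes and in ZNF140, a KRAB gene of chromosome 12 whose single peak held 5 copies.
ZNF284, chr19:44576238-44576267 (- strand): gcgtgtgaACTACAtttCCCAGaattcccc
ZNF225, chr19:44617392-44617421 (- strand): gcgtctggACTACAtttCCCAGaaatcccc
ZNF225, chr19:44617464-44617493 (- strand): gcgtctggACTACActtCCCAGaattccct
ZNF234, chr19:44645675-44645704 (- strand): ttggcgggACTACAtttCCCAGaattcccc
ZNF749, chr19:57946539-57946568 (+ strand): gcgtgggaACTACAttaCCCAGaagacact
ZNF749, chr19:57946588-57946617 (+ strand): acgtgagaACTACAttaCCCAGaagacact
ZNF586, chr19:58280901-58280930 (+ strand): gtctgggaACTACAttaCCCAGaatccgcc
ZNF587, chr19:58361102-58361131 (+ strand): agtggggaACTACAttaCCCAGaaagctct
ZNF814, chr19:58400510-58400539 (- strand): cctagggaACTACAttaCCCAGaaaactca
ZNF140, chr12:133656652-133656681 (- strand): ctcaggtgACTACActtCCCAGaacacacc
ZNF140, chr12:133656904-133656933 (- strand): ttcaggcaACTACActtCCCAGaacctcta
ZNF140, chr12:133657166-133657195 (- strand): cctaggcaACTACAtttCCCAGaaataacc
ZNF140, chr12:133657264-133657293 (- strand): ctgcgacaACTACAattCCCAGagccatcg
ZNF140, chr12:133657387-133657416 (- strand): ctcaagaaACTACAattCCCAGaaaccaat

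Neighbours share sequence here. Of 33 such windows in 26 peaks, 31 were distinct, and the windows of ZNF417 and ZNF587 were identical, as were those of ZNF286A and ZNF286B. These copies are therefore not independent of each other. Longer stretches upstream of the start sites of ZNF587B and ZNF814, which lie near each other at the end of the long arm, show both sequences within 1 peak (capitals mark the E-box and the whole 14-base stretch).
ZNF587B, chr19:58341411-58341660 (+ strand): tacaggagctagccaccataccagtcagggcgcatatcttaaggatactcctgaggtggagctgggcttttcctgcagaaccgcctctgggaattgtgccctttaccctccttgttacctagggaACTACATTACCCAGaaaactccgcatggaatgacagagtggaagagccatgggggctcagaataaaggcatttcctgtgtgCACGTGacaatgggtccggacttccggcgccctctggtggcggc
ZNF814, chr19:58400443-58400557 (- strand): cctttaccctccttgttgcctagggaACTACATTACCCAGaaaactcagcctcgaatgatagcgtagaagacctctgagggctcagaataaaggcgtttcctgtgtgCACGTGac

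In both stretches the split sequence lay upstream of the E-box, and the letters around both were similar between the 2 genes. Over all ZNF peaks, 27 of the 33 windows lay within 200 bp of the centre of a promoter row (the RefSeq start site), 23 lay upstream of it, and 13 were on the strand of the gene.

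N-Myc listed a larger share of ZNF genes than of other coding genes. Of 496 annotated ZNF coding genes on autosomes, 122 were in the N-Myc list, or 24.6% (95% CI 20.9 to 28.6%), beside 18.3% of all coding genes on autosomes and 18.2% of those other than ZNF (95% CI 17.6 to 18.7%). The remaining 4 members, ZNF286B, ZNF56, ZNF767P and ZNF815P, are not annotated as coding. Because listing chose the genes, these shares carry no test.

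On chromosome 19 the share was 54 of 246 genes, or 22% (95% CI 16.9 to 27.7%), beside 16.8% of all its coding genes and 15.7% of those other than ZNF (95% CI 13.7 to 17.9%). On other autosomes it was 68 of 250, or 27.2% (95% CI 21.8 to 33.2%), beside 18.5% of all coding genes there. The intervals of chromosome 19 and of the other autosomes overlapped. Related families with the same kind of fingers had wide intervals that overlapped that of the ZNF genes: 4 of 18 ZFP genes, 5 of 21 ZSCAN genes, 3 of 7 ZKSCAN genes and 9 of 40 ZBTB genes were listed.

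**Figure D1:**
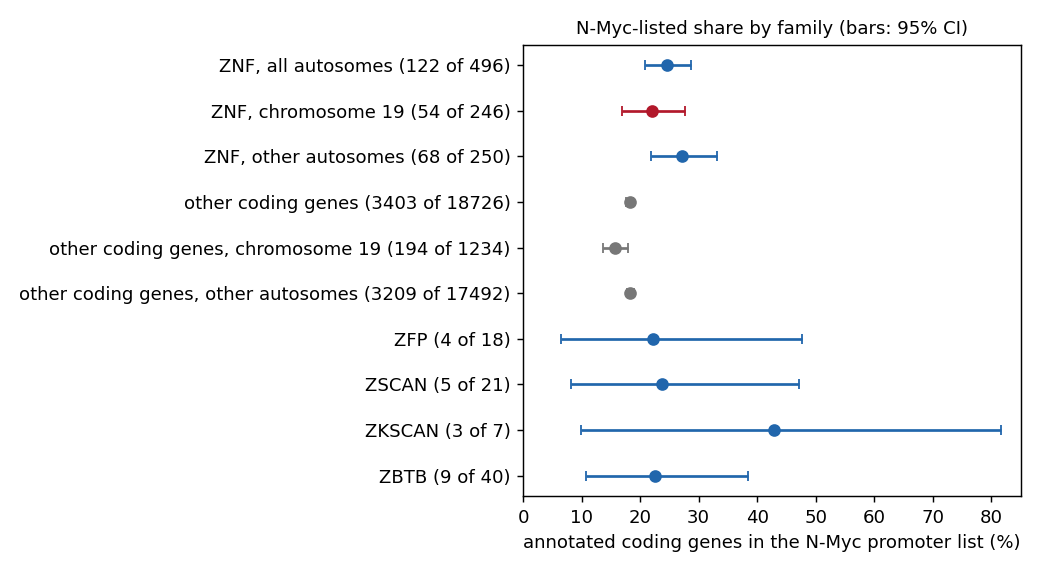
Share of annotated autosomal coding genes in the N-Myc promoter list (x axis, %) for each gene group (y axis, with listed and annotated numbers); points are shares and bars exact 95% intervals. ZNF genes as a whole sit at 24.6% and other coding genes at 18.2%, while the small ZFP, ZSCAN, ZKSCAN and ZBTB families have wide bars.

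Single chromosomes varied around these values. Chromosome 16 had the highest share among chromosomes with at least 20 annotated ZNF genes, with 14 of 30, or 46.7% (95% CI 28.3 to 65.7%), beside 17% of its other coding genes. These 14 included ZNF263, ZNF423 and the pair ZNF646 and ZNF668, whose start sites share a single peak. Chromosome 1 had 3 of 20, or 15% (95% CI 3.21 to 37.9%), and chromosome 7 had 7 of 35, or 20% (95% CI 8.44 to 36.9%). Only chromosomes 5 and 6, with fewer annotated ZNF genes, had higher shares than chromosome 16. These were 6 of 12, or 50% (95% CI 21.1 to 78.9%), and 5 of 9, or 55.6% (95% CI 21.2 to 86.3%). Chromosome 16 was singled out after the values were seen.

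Along chromosome 19, listed genes were scattered through the clusters. Joining annotated ZNF start sites no more than 500 kb apart gave 11 runs of at least 3 genes. The longest run, ZNF264 to ZNF446, held 43 genes, of which 13 were listed, from ZNF805 to ZNF8, or 30.2% (95% CI 17.2 to 46.1%). The run from ZNF653 to ZNF490 had 8 of 25 listed, from ZNF627 to ZNF490, or 32% (95% CI 14.9 to 53.5%).

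A pair of large runs held few listed genes. Only ZNF610 and ZNF331 were listed among the 39 genes from ZNF175 to ZNF331, or 5.13% (95% CI 0.627 to 17.3%), and that run held the longest stretch of unlisted neighbours, 24 genes from ZNF880 to ZNF813. Between ZNF101 and ZNF254, 4 of 37 genes were listed, from ZNF14 to ZNF43, or 10.8% (95% CI 3.03 to 25.4%), and the same run held ZNF429, a gene of the JMJD6 list. At most 4 neighbours in a row were listed, in a pair of places (ZNF574, ZNF526, ZNF575 and ZNF576, and ZNF587B, ZNF587, ZNF814 and ZNF417).

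The remaining runs held from 0 of 3 to 2 of 5 listed genes. From the short arm onward, 2 of 5 genes were listed in the run of ZNF554 and ZNF77, 4 of 13 from ZNF414 to ZNF846, 2 of 5 in the run of ZNF302 and ZNF181, 6 of 26 from ZNF146 to ZNF573, 0 of 3 in the run of ZNF546, 6 of 23 from ZNF575 to ZNF180 and 4 of 16 from ZNF628 to ZNF835.

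**Figure D2:**
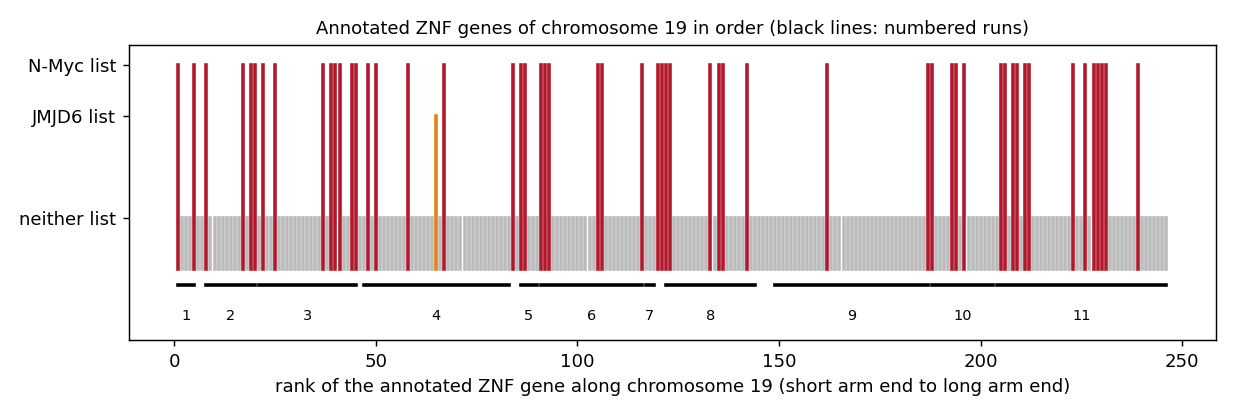
The 246 annotated ZNF coding genes of chromosome 19 in order along the chromosome (x axis, rank), with tall red lines for genes in the N-Myc list, an orange line for ZNF429 in the JMJD6 list and short grey lines for genes in neither; black lines mark the 11 numbered runs. Run 9 (ZNF175 to ZNF331) shows 2 red lines among 39 genes, and run 11 (ZNF264 to ZNF446) shows 13 among 43.

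N-Myc peaks at ZNF promoters were narrower by median than those at other promoters, a difference that was not tested. There were 130 such peaks, 56 on chromosome 19 and 74 elsewhere, with a median width of 405.5 bp (quartiles 319.25 and 560.25 bp), beside 454 bp (quartiles 345 and 613.5 bp) at 3419 peaks of other listed promoters. On chromosome 19 the medians were closer, 419 bp at ZNF promoters and 428 bp at 182 peaks of other listed promoters. At ZNF promoters of other autosomes the median was 391 bp. Most genes, 114, had 1 peak, 9 had 2 and ZNF331 had 3, while ZNF335 and ZNF44 were listed with no common peak on their rows.

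The widest peak on chromosome 19 measured 1321 bp and covered the start sites of ZNF146 and ZNF565. It was followed there by ZNF8 with 1196 bp, ZNF566 with 1194 bp and ZNF573 with 895 bp. The narrowest there were 242 bp at ZNF383, 243 bp at ZNF805 and 252 bp at ZNF586. All of these except ZNF146 held a KRAB core by the search pattern used here.

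On other autosomes the widest peaks were those of ZNF687 with 1054 bp, ZNF789 with 1038 bp, ZNF462 with 986 bp, ZNF169 with 944 bp and ZNF140 with 942 bp. The narrowest were those of ZNF778 with 227 bp, ZNF84 with 242 bp and ZNF354C with 245 bp. ZNF778 was also among the members just inside the promoter limit, since its peak overlapped the row by 74 bp, as were ZNF425 with 41 bp and ZNF219 with 113 bp. Just outside, the nearest N-Myc peaks of the unlisted genes ZNF516 and ZNF800 lay 2086 and 2510 bp from the annotated start site. A further 4 unlisted genes (ZNF609, ZNF616, ZNF804A and ZNF892) had an N-Myc peak within 1 kb of a GENCODE start site, which need not be a RefSeq one.

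**Figure D3:**
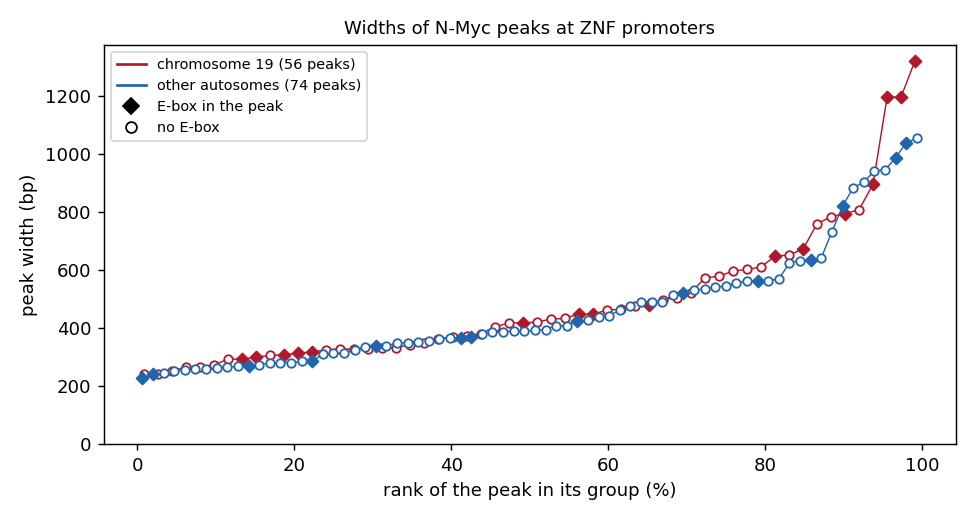
Width of each N-Myc peak at a ZNF promoter (y axis, bp) by its rank within its group (x axis, %), in red for chromosome 19 and blue for other autosomes; filled diamonds are peaks with an E-box and open circles peaks without. The curves start at 242 and 227 bp, and the 4 widest chromosome 19 peaks, up to 1321 bp, all hold an E-box. Among the widest on other autosomes, the peaks of 1038 and 986 bp hold an E-box and those of 1054, 944 and 942 bp do not.

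Peak centres lay nearer the start site at ZNF genes than at other listed genes. The median distance of the nearest peak centre from the row centre was 92.25 bp over 124 ZNF genes and 189 bp over 3910 other genes. Within 200 bp there were 92 of the ZNF genes, or 74.2% (95% CI 65.6 to 81.6%), and 2026 of the others, or 51.8% (95% CI 50.2 to 53.4%). Genes with several start sites have more chances of a near peak, and among genes with 1 row the shares were 67.4% (95% CI 56.7 to 77%) and 48.1% (95% CI 46.3 to 49.8%). These shares were described after the positions were seen, and the difference was not tested.

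On chromosome 19, 79.6% of 54 ZNF genes had a peak centre within 200 bp (95% CI 66.5 to 89.4%), beside 47.4% of 209 other genes there (95% CI 40.4 to 54.4%). The centre lay downstream of the start site in 43 of the 124 ZNF genes. Peaks spanning start sites of genes on both strands made up 16.2% of ZNF peaks (95% CI 10.3 to 23.6%) and 22.2% of the others (95% CI 20.8 to 23.7%). The median GC share was 58.7% and the median observed-to-expected CpG ratio 0.727 at ZNF peaks, beside 58.3% and 0.729 at the others.

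**Figure D4:**
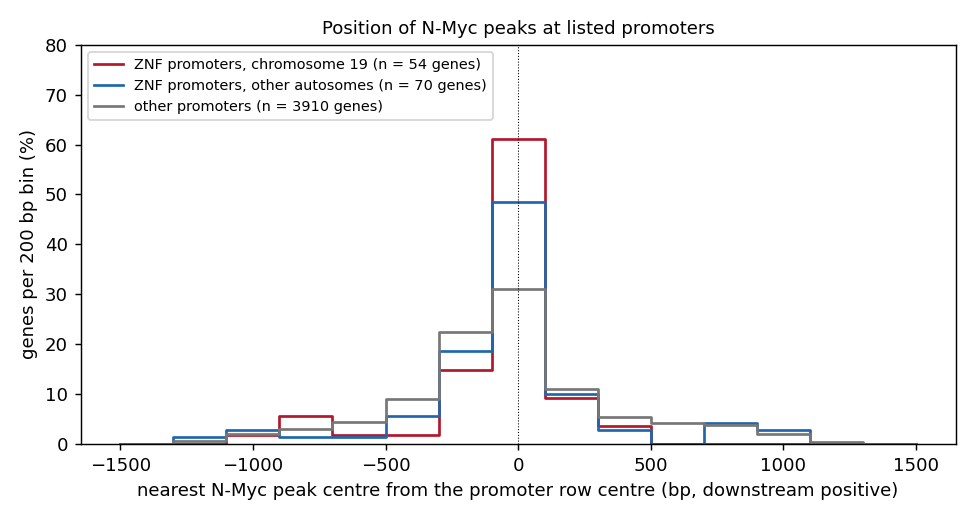
Distance of the nearest N-Myc peak centre from the promoter row centre (x axis, bp, downstream positive) as a share of genes per 200 bp bin (y axis, %), for ZNF genes of chromosome 19 (54, red), ZNF genes of other autosomes (70, blue) and other listed genes (3910, grey). The red and blue curves are taller at the start site than the grey one, and each group has a thin tail on both sides.

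E-boxes were less frequent in the N-Myc peaks of ZNF promoters than in those of other promoters. CACGTG was found in 30 of 130 ZNF peaks, or 23.1% (95% CI 16.1 to 31.3%), and in 1279 of 3419 other peaks, or 37.4% (95% CI 35.8 to 39.1%). The odds ratio was 0.502, and Fisher's exact test (two-sided) gave p = 0.000798 and, adjusted by Benjamini-Hochberg over 7 motifs, p = 0.0056. The test counts every peak as independent, although related ZNF genes share sequence. This p-value and those below, which treat ZNF sequences in the same way, may therefore be too small. Per kb of peak there were 0.602 E-boxes at ZNF promoters and 0.889 at others. The direction was the same but the call was lost when only 200 bp around each peak centre was searched (14.6% against 23.4%, adjusted Fisher's exact p = 0.135), among peaks at least as wide as the median of the list (adjusted Fisher's exact p = 0.322), and when chromosome 19 members were set against other promoters of that chromosome (28.6% against 42.9%, adjusted Fisher's exact p = 0.216).

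None of the other 6 motifs differed past the threshold between ZNF and other peaks. They were the E-box variants CACGCG and CATGTG, the ETS core CCGGAA, the GC box GGGCGG, the CCAAT box and TATAAA, letters of the TATA box. The ETS core, for example, was in 42.3% of ZNF peaks and 33.9% of others (adjusted Fisher's exact p = 0.207). The GC box was in 57.7% and 57.6%.

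Chromosome 19 and the other autosomes did not differ past the threshold in any of the 7 motifs. CACGTG was in 16 of 56 ZNF peaks on chromosome 19, or 28.6% (95% CI 17.3 to 42.2%), and in 14 of 74 elsewhere, or 18.9% (95% CI 10.7 to 29.7%; odds ratio 1.71, adjusted Fisher's exact p = 0.498). CCAAT came nearest, with 64.3% against 40.5% (odds ratio 2.64, adjusted Fisher's exact p = 0.058, with p = 0.0083 before adjustment).

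The promoter windows of annotated genes, 250 bases before to 50 after the start site, gave a background for these letters, chosen after the peaks had been examined. An E-box was in 8.70% of all coding promoters. It was in 11 of 120 listed ZNF promoters, or 9.17%, and in 13 of 372 unlisted ones, or 3.49% (odds ratio 2.79). Among other genes it was in 15.9% of listed and 7.19% of unlisted promoters (odds ratio 2.45). Because listing defined these groups, the odds ratios are given without a p-value.

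Unlisted ZNF promoters held an E-box less often than unlisted promoters of other genes (3.49% and 7.19%, odds ratio 0.467). Among listed promoters the shares were 9.17% for ZNF and 15.9% for other genes (odds ratio 0.532). Listing defined these groups as well, so they are described without a p-value. On chromosome 19, E-boxes were in 5 of 52 listed and 4 of 191 unlisted ZNF promoters.

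The split sequence, ACTACA and CCCAG 3 bases apart, went the other way. It was in 26 of 130 ZNF peaks, or 20% (95% CI 13.5 to 27.9%), and in 124 of 3419 other peaks, or 3.63% (95% CI 3.03 to 4.31%). On chromosome 19 it was in 17 of 56 ZNF peaks, or 30.4% (95% CI 18.8 to 44.1%), and in 8 of 182 other peaks, or 4.4% (95% CI 1.92 to 8.48%), and at ZNF promoters of other autosomes it was in 9 of 74, or 12.2% (95% CI 5.71 to 21.8%). Of the 26 ZNF peaks that held it, 10 also held an E-box.

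This sequence was also common in ZNF promoters that N-Myc did not list. In the promoter windows it was in 23 of 120 listed ZNF promoters, or 19.2% (95% CI 12.6 to 27.4%), and in 41 of 372 unlisted ones, or 11.0% (95% CI 8.03 to 14.7%). All coding promoters held it in 1.99%, other listed promoters in 3.35% and other unlisted ones in 1.32%. The shares are descriptions over related sequences, with no test.

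**Figure D5:**
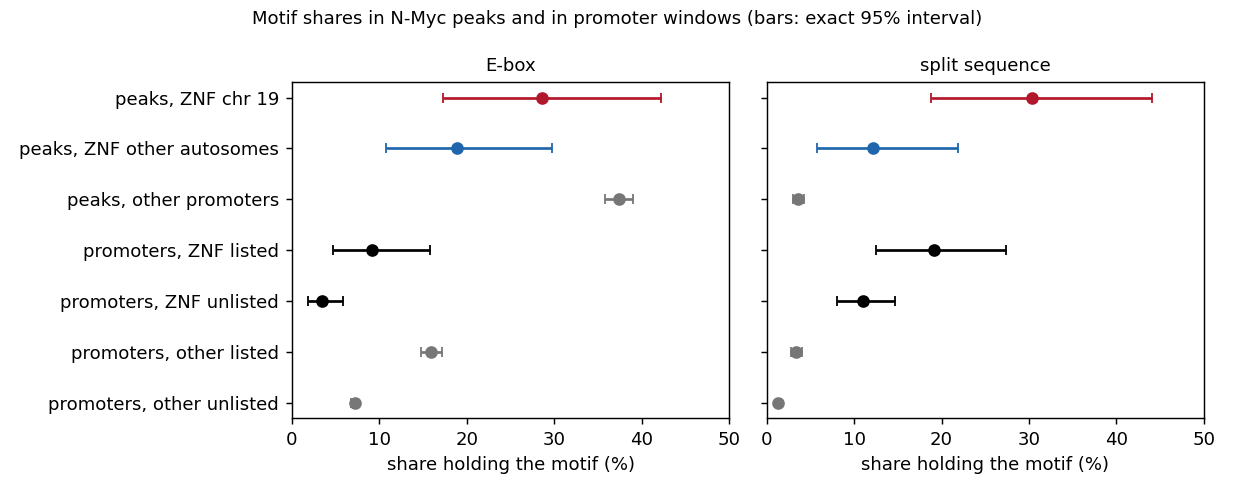
Share of sequences holding the E-box (left) or the split sequence described in the text (right; x axes, %) in N-Myc peaks and in promoter windows of listed and unlisted genes; points are shares and bars exact 95% intervals. ZNF peaks sit below other peaks on the left (37.4% in the grey point of other peaks) and above them on the right (30.4% on chromosome 19 beside 3.63% at other promoters).

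The JMJD6 list held only 3 ZNF genes, or 0.605% of the 496 (95% CI 0.125 to 1.76%), beside 0.655% of all coding genes. On chromosome 19 it held 1 of 246 ZNF genes and 19 of 1234 other coding genes, or 1.54% (95% CI 0.929 to 2.39%). For promoters bound by both, 0 of 496 ZNF genes allows a share of up to 0.605% by the limit of 3 counts of the total (the exact 95% interval reaches 0.741%), beside 0.312% of all coding genes. None of the 130 N-Myc peaks at ZNF promoters overlapped a JMJD6 peak, which allows up to 2.31% by the same limit of 3 counts, and 48 of 3419 at other promoters did, or 1.404%. With 1.404% as the share at other promoters, a lower share at ZNF promoters was not detectable at these numbers.

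ZNF429, on chromosome 19, had a JMJD6 peak at chr19:21688144-21688595 (452 bp), centred 16.5 bp from the start site and reaching into the annotated untranslated region. The nearest N-Myc peak lay 330 kb away. The part of the peak upstream of the start site is shown as the 1 JMJD6 member whose peak sits on the start site of a clustered KRAB gene, and it holds neither the E-box nor the split sequence.
ZNF429, chr19:21688144-21688352 (+ strand): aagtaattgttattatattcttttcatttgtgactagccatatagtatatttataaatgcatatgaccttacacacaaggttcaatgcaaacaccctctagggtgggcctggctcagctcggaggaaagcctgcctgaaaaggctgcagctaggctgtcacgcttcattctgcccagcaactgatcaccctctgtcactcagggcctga

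ZNF672, near the end of chromosome 1, had a pair of JMJD6 peaks, of 198 bp centred 112.5 bp and of 1096 bp centred 896.5 bp downstream of the start site. The second, chr1:249132725-249133820, lay 117 kb from the end of the reference chromosome. ZNF365, on chromosome 10, had a JMJD6 peak of 157 bp at chr10:64134864-64135020 that overlapped the row by only 52 bp, and it has 0 C2H2 fingers by the pattern used here. Neither gene had an N-Myc peak nearby, since the nearest lay 1961 kb from ZNF672 and 336 kb from ZNF365. No E-box was found in any of the 4 JMJD6 peaks. One further JMJD6 peak lay in an annotated ZNF gene away from a listed promoter, at chr19:58912488-58912964 in ZNF584.

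All 75-base windows of these 4 JMJD6 peaks occur once in the reference, as do those of all 56 N-Myc peaks at chromosome 19 ZNF promoters. Of the 74 on other autosomes, 64 were fully unique in this sense, and 2 had no unique window, those of ZNF84 and ZNF140 on chromosome 12. At other promoters 94.7% of peaks were fully unique. How reads of such repeated sequence affect the peaks of ZNF84 and ZNF140 was not tested. Only called peaks were examined in this way, so the uniqueness of unlisted ZNF promoters, on chromosome 19 or elsewhere, is unknown.

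The median number of fingers differed between listed and unlisted ZNF genes in opposite directions on chromosome 19 and elsewhere, with no test. Translated coding sequences were at hand for 487 of the 496 genes. The 118 proteins of listed genes had a median of 10.5 C2H2 fingers (quartiles 7 and 14.75), and the 366 of genes in neither list had 11 (quartiles 7 and 14). On chromosome 19 the medians were 11.5 in listed and 13 in unlisted genes, and on other autosomes 9.5 and 8. ZNF142 had 36 fingers, the most among listed genes.

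A KRAB core was found in 59.3% of the listed proteins (95% CI 49.9 to 68.3%) and in 63.1% of the unlisted ones (95% CI 57.9 to 68.1%). On chromosome 19 it was found in 75% of 52 listed and 86.8% of 189 unlisted proteins, and on other autosomes in 47.0% of 66 and 37.9% of 177. Seen from the other side, N-Myc listed 23.2% of genes with a KRAB core and 25.9% of those without. The search pattern was widened after a narrower one had missed known KRAB proteins and its shares had been seen (22.1% and 25.7%). A KRAB box that departs from the wider pattern still counts as no core, so the shares of proteins with a core may be too low.

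Some corepressor genes linked to KRAB zinc finger proteins were in the N-Myc promoter list. Of 27 corepressor genes, 24 on autosomes, 7 autosomal ones were in the N-Myc promoter list and 0 in that of JMJD6. Those lists held 18.3% and 0.655% of all autosomal coding genes, and with so few corepressor genes the shares were not compared. The 7 were SETDB1, which methylates histone H3 lysine 9, the heterochromatin proteins CBX3 and CBX5, the DNA methyltransferase DNMT1, MORC2 of the silencing machinery that works with the HUSH complex, the remodeller SMARCAD1 and the histone chaperone DAXX. Their N-Myc peaks ranged from 310 bp at MORC2 to 1895 bp at CBX3, and 3 of them (SETDB1, CBX5 and MORC2) held an E-box. TRIM28, the corepressor that KRAB boxes bind, was not in either promoter list.

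ZNF genes were also nearest genes of regions that the deposited lists class as enhancers. Of 4649 N-Myc-bound enhancers, 157 had a ZNF gene among their nearest genes, or 3.38% (95% CI 2.88 to 3.94%), naming 138 ZNF genes. Of these 157 regions, 70 overlapped a listed ZNF promoter, so not all of them lie away from promoters. ZNF genes are 496 of 19222 autosomal coding genes, but a region can name several genes, so the shares are not set against each other. ZNF608 was named for 7 enhancers. Of 96 JMJD6-bound enhancers, 3 had a ZNF gene nearest, 2 of them over a listed ZNF promoter, and of the 65 bound by both there was 1, at chr19:36821927-36822600, between ZNF565 and ZFP14. Among 162 N-Myc-bound super-enhancers, 1 did (ZNF385A), and 0 of 9 bound by JMJD6 did.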

How the data were processed

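ChIP-seq of 6 samples (3 per antibody) was used as 12 deposited lists. Per the labels and methods, the authors aligned reads with BWA, processed them with SAMtools and bedtools, called peaks with MACS2 (version 2.1.1.20160309) against input at a q-value maximum of 0.05 and kept peaks of all 3 replicates. The values the authors deposited are positions in bp, with no score or coverage. Of the ZNF rows, 93.4% lay within 100 bp of a GRCh37 start site of that symbol in GENCODE 44.

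Annotated coding genes, exons and proteins came from GENCODE (coding sequences were translated because no RefSeq protein table was used here), and older symbols were matched through RefSeq for all 129 members. Peaks and rows were joined at an overlap of 1 bp. Motifs were counted on both strands, and shares were compared by Fisher's exact tests with Benjamini-Hochberg adjustment and a threshold of 0.05. The tests were tried on simulated random sequences of equal length. Those lack the varied widths, base content and related sequences of these peaks. Fingers were counted as C-x2..4-C-x12-H-x3..5-H. Named genes were all JMJD6 members, the 5 widest and 3 narrowest peaks and the 5 with most E-boxes on chromosome 19 and elsewhere, the ends of runs and the listed corepressors; others were named after their values were seen. Members and lists were chosen with earlier results of these data known. Python 3.11.15, SciPy 1.17.1, numpy 2.4.6 and pysam 0.24.0 were used.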

Additional observations from a re-analysis of the deposited data

How the results depend on the processing

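The numbers of listed ZNF genes stayed within 1.5 times their main value when overlapping rows were merged, when a final letter was not allowed, when a common peak was required and when RefSeq replaced GENCODE as the gene annotation, which was chosen after seeing the data. Keeping only peaks at least as wide as the median of their list, the nearest substitute for a stricter threshold, left 31 N-Myc genes on chromosome 19 and 34 elsewhere, 1 JMJD6 gene off chromosome 19, and 63 ZNF peaks, with median widths of 562 bp at ZNF and 583 bp at other promoters and median distances of 117.5 bp at ZNF and 202.5 bp at other promoters. Requiring that at least 50% of a peak lie inside the promoter also left 1 JMJD6 gene off chromosome 19, since ZNF365 was lost. The odds ratio of the E-box between ZNF and other promoters was 0.56 in 200 bp around the centre (adjusted Fisher's exact p = 0.135), 0.60 among wider peaks (adjusted Fisher's exact p = 0.322) and 0.53 within chromosome 19 (adjusted Fisher's exact p = 0.216), and the cause was not tested. It kept its call when 50% of the peak had to lie inside the promoter, without the ZFP, ZSCAN, ZKSCAN and ZBTB families, in fully unique peaks (adjusted Fisher's exact p = 0.0073) and in peaks centred within 200 bp of a row centre (odds ratio 0.364, adjusted Fisher's exact p = 0.0029), the last pair chosen after seeing the data. The E-box comparison of chromosome 19 with other autosomes stayed short of the threshold under all 4 alternatives, with odds ratios from 1.23 to 2.17. No paired analysis was possible because the lists pool the replicates and hold no column per sample, and for the same reason no replicate could be left out. Depth is unknown, so a gene outside the lists was not detected in all replicates, not shown to be unbound.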
